A study of Mus musculus with 6 samples.

Results

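In mouse gene nomenclature a symbol that ends in "os" (opposite strand) names a transcript read from the strand opposite to a known gene, whose symbol forms the first part of the name. The deposited table of 56413 gene symbols held 310 such symbols whose remainder was itself a symbol in the table. Of these, 83 had no count in any library. The 115 with at least 10 counts in at least 3 libraries are described here, each with its sense partner, the gene on the other strand. They had 105 different sense partners, since 8 partners had more than 1 opposite-strand transcript and 2 of these, Rapgef4 and Ube4b, had 3. The count filter chose them on level alone. Peak1os, whose third-highest count was 10, lay just inside it, and Dnmt3bos and Arf4os, at 9, just outside.

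RNA came from freshly isolated mouse splenocytes and was sequenced after removal of ribosomal RNA, in 3 wild-type (WT) libraries and 3 libraries labelled as a Top3b knockout (Top3b-KO). Top3b encodes topoisomerase III-beta, an enzyme that acts on both DNA and RNA. The study was set up to examine how it guards against tumours and immune dysregulation. The labels give no strain, age or knockout construct, and do not say whether libraries of 1 genotype came from separate animals, so p-values measure the spread between these libraries.

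Opposite-strand transcripts fall into a few arrangements. Some start back to back with a coding gene at a promoter that fires in both directions, some lie inside an intron or across exons of the gene, and some meet it tail to tail. Most are long noncoding RNAs, many of which the nuclear exosome degrades soon after synthesis, although a few loci that carry an "os" name encode proteins of their own. An opposite-strand transcript can act on its partner, on other RNAs, or have no known function.

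Oip5os1, the transcript that took the most counts, is a long noncoding RNA also known as Cyrano. It is known to carry a site of unusually long pairing to the microRNA miR-7 and to promote the destruction of that microRNA. The mature microRNA (RefSeq, GRCm38.p6) is shown with its seed, bases 2 to 8, in capitals. The site below it was found in the longest GENCODE M21 transcript of the gene, of 8300 bases, where the match to the seed starts at base 2952. Capitals in the site mark the 7 bases that match the seed and a run of 13 bases that match the 3′ part of the microRNA, 20 in all.
mmu-miR-7a-5p: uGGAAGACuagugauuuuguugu
Oip5os1 site: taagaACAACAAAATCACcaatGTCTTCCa

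RefSeq start sites (GRCm38.p6) were at hand for both genes of 64 pairs, as windows from 250 bases before to 50 after the start. Where a gene had more than 1 start site, the closest ones of the pair were taken. In 13 of these pairs they lay back to back and less than 250 bases apart, with gaps of 18 to 216 bases and a median of 89. The 13 include transcripts that the GENCODE M21 models put inside the partner, such as Arhgap27os3 and Lrp8os2. The gap was searched on both strands for 8 motifs, none of which lies within another. They were GGGCGG (GC box), CCAAT (the box named after it), TGACGTCA (CRE), TATAAA (a core promoter element), CCGGAAG (ETS), TGACTCA (AP-1), the motif of NRF1 and AAGATGGCG (YY1). The gap held GGGCGG in 7 pairs, CCAAT in 4 and TGACGTCA in 1, and the other 5 motifs in none. Over all 32851 mouse windows of 300 bases in the table, 35.7% held GGGCGG, 37.4% CCAAT, 1.79% TGACGTCA, 13.6% TATAAA, 8.86% CCGGAAG, 5.20% TGACTCA, 0.971% the NRF1 motif and 1.40% AAGATGGCG. These shares refer to a longer stretch than the gaps, so they are not comparable with the counts in gaps. The windows of the opposite-strand transcripts had a median ratio of observed to expected CpG of 0.313, against 0.701 in windows of their partners and 0.384 in all windows. GGGCGG occurred in 35.1% of the former and 59.1% of the partners' windows.

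For 5 of the 13 pairs the GENCODE M21 models also put the genes without overlap, and their gaps are printed because they are the whole stretch between the 2 start sites. Each reads 5′ to 3′ on the strand of the opposite-strand transcript, which starts just after the last base, with motif matches on either strand in capitals. The 5 were chosen by position, and Etaa1os and Map2k3os are named here for that reason, after their values were seen. Arl4aos lies at chr12:40037988-40038076 (plus strand), Cep83os at chr10:94688614-94688789 (minus strand), Etaa1os at chr11:17953876-17953969 (plus strand), Fam120aos at chr13:48968061-48968111 (plus strand) and Map2k3os at chr11:60931868-60932053 (minus strand).
Arl4aos gap: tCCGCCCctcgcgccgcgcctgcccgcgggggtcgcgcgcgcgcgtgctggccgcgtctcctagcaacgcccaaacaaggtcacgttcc
Cep83os gap: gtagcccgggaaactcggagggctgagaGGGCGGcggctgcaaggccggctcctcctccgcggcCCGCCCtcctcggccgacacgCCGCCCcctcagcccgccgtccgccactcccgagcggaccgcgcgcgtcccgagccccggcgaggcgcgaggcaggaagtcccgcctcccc
Etaa1os gap: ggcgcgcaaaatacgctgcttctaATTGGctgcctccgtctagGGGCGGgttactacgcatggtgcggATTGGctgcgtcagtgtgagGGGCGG
Fam120aos gap: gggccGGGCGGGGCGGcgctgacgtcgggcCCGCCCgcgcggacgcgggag
Map2k3os gap: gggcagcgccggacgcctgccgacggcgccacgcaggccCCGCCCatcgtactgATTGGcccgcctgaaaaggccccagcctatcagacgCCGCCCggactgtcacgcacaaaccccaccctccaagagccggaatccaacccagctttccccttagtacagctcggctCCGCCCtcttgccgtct
All 5 gaps hold GGGCGG or its complement, and those of Etaa1os and Map2k3os also hold CCAAT, seen here as ATTGG. Such a match is a description of the letters and no evidence of a bound factor.

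The 6 libraries held between 9941014 and 25473404 counts, with Top3b-KO replicate 3 the shallowest. Levels are given as depth-scaled counts (CPM, scaled by edgeR's TMM factors), and a floor of 3 counts corresponds to 0.119 to 0.303 CPM, which covers counting error only. Markers of B cells, T cells and myeloid cells were present (Cd79b at 602, Cd8a at 206 and Lyz2 at 406 CPM on average over the 6 libraries). Top3b was at 95.1, 86.9 and 91.0 CPM in WT and at 51.5, 48.2 and 49.7 CPM in the knockout (log2 fold change -0.87, SE 0.071, and adjusted p = 5.78e-06 in edgeR). A count per gene does not show which exons the remaining reads cover.

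Both library kits that the labels describe keep the strand, but the strand setting of the counting was not stated in these sources. Tsix, which runs antisense to the X-inactivation RNA Xist and shares 1980 exon bases with it, bears on this. Xist had 18652 to 47930 counts per library and Tsix 8 to 22. The mean level of Tsix, 0.856 CPM, was 0.410% of what Xist's own coverage would put on the shared bases. Itpr3os likewise stood at 0.998 CPM beside its abundant partner, 11.1% of what the partner's coverage of their 233 shared exon bases would give. Over the pairs with shared exon bases this percentage ran from 3.46% for Arhgap27os2 to 8652% for Mypopos. It was 50.3% for Gimap1os, 55.6% for Junos and 95.3% for Rbm3os. A count that ignored strand but dropped reads in 2 genes would also give low values, so the setting is not settled. Of the 110 pairs with gene models, 70 shared between 6 and 1107 exon bases and 40 shared none. For the 70, counts of the 2 genes may not be fully separate.

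Most opposite-strand transcripts were rare. Their mean level had a median of 2.53 CPM and ran from 0.449 to 237 CPM. There were 15 at 10 CPM or more, 75 from 1 to 10 CPM and 25 below 1 CPM. Their sense partners had a median of 51.3 CPM and all 18716 tested genes one of 11.0 CPM. Summed over the 115, the level lay between 851 and 917 CPM in the 6 libraries. Oip5os1 made up 27.2% of that sum, and together with Rab10os, Brip1os and Slc7a6os 49.3%. These shares are of reads, which longer transcripts collect more of.

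Per kilobase of exons, taken from GENCODE M21 for the 110 pairs with models of both genes, the opposite-strand transcript stood at a median of 16.7% of its partner. The percentage ran from 1.42%, for Il1bos opposite the cytokine gene Il1b, to 2789%, for Epb41l4aos. In 37 pairs it was under 10% and in 12 pairs the opposite-strand transcript was the higher of the 2. Without the length correction 10 were higher and the median was 5.25%.

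**Figure D1:**
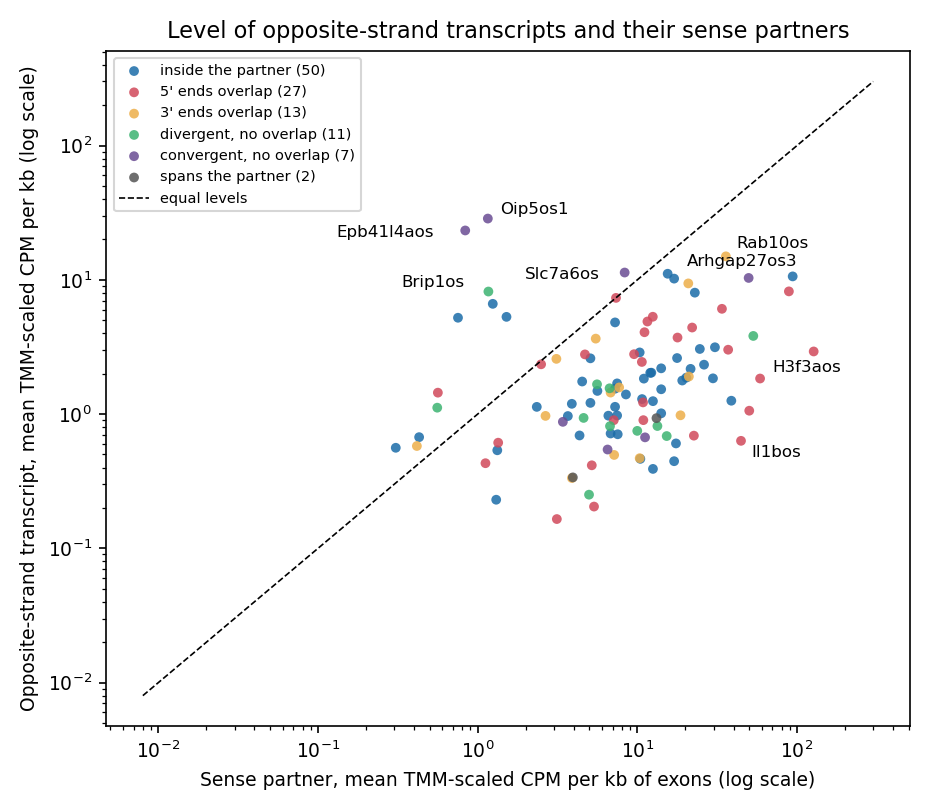
Mean level over the 6 libraries of the opposite-strand transcript (vertical axis) and of its sense partner (horizontal axis) in 110 pairs, both in TMM-scaled CPM per kilobase of exons on log scales, coloured by arrangement. Most points lie under the dashed line of equal levels, and the 12 above it include Epb41l4aos, Oip5os1 and Brip1os.

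The 12 that exceeded their partner per kilobase were mostly paired with genes of low level. Epb41l4aos, convergent with the gene of a FERM-domain protein, was at 23.3 CPM per kilobase and Epb41l4a at 0.835. Oip5os1 was at 28.6 CPM per kilobase, against 1.16 for Oip5, a gene of centromere function. Brip1os was at 8.18 and Brip1, the helicase of the BRCA1 complex, at 1.17. These 3 stood highest above their partners together with Slc36a3os (5.22 against 0.753 CPM per kilobase) and Rab26os (6.62 against 1.24). Mypopos (350% of its partner), Kcnmb4os2 (256%), Foxd2os (200%), Nr6a1os (183%), Sox5os3 (157%), Atcayos (139%) and Slc7a6os (136%) made up the rest. Slc7a6os is itself a protein-coding gene, whose product is related to a yeast factor for nuclear import of RNA polymerase II. RefSeq matched 84 of the 115 and classed 76 as long noncoding RNA and 1 as a transcribed pseudogene. It classed 7 as protein-coding, among them Brd3os, Cdiptos, Cebpzos, Pigbos1, Slc7a6os and Wdr83os.

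By arrangement, 50 opposite-strand transcripts lay inside the partner, 27 overlapped its 5′ end, 13 overlapped its 3′ end, 11 were divergent without overlap, 7 convergent without overlap, and 2 spanned it. For 5 (Ptprjos1, Mmp24os1, Lef1os1, Stk35os1 and Rbfaos) there was no model. The median level was 10.02 CPM for the 7 convergent transcripts, 3.64 CPM for 5′ overlaps, 2.45 CPM for 3′ overlaps, 2.07 CPM for those inside and 1.15 CPM for divergent ones. Per kilobase the medians relative to the partner were 25.6%, 17.95%, 21.3%, 16.2% and 12.1% in the same order. Values within each arrangement covered a far wider range than these medians, for example 1.27 to 237 CPM among the 7 convergent ones.

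The most abundant transcripts varied little between libraries. Oip5os1 was at 223, 221 and 261 CPM in WT and 245, 245 and 230 CPM in the knockout. The genotypes overlapped, and the log2 fold change was 0.03 (95% interval -0.12 to 0.18). Its partner Oip5 was at 2.39, 1.51 and 2.20 CPM in WT and 1.76, 1.86 and 2.63 CPM in the knockout, also overlapping. Rab10os, which meets the 3′ end of the vesicle-transport GTPase gene Rab10, was at 90.3, 88.2 and 94.5 CPM in WT and 97.9, 89.7 and 90.5 CPM in the knockout. Rab10 itself was at 123 ± 9.95 CPM in WT, against 129 ± 4.52 CPM in the knockout (SD, n = 3). The log2 fold change of Oip5os1 was -0.0056 without WT replicate 1 and -0.010 without WT replicate 2, and that of Rab10os, 0.03 with all libraries, was -0.0071 without Top3b-KO replicate 1.

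Brip1os was at 52.6, 54.4 and 50.1 CPM in WT and 51.4, 56.1 and 54.2 CPM in the knockout. Slc7a6os was at 51.9, 46.6 and 50.01 CPM in WT and 42.4, 46.7 and 49.3 CPM in the knockout, with Slc7a6, a cationic amino acid transporter gene, at 38.9 ± 4.36 and 37.2 ± 0.853 CPM (SD, n = 3). In both cases the genotypes overlapped, and the 95% intervals of the log2 fold changes were -0.11 to 0.20 and -0.28 to 0.06. For these 4 transcripts the intervals exclude a change of 1.5-fold (0.585 on the log2 scale) in either direction.

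**Figure D2:**
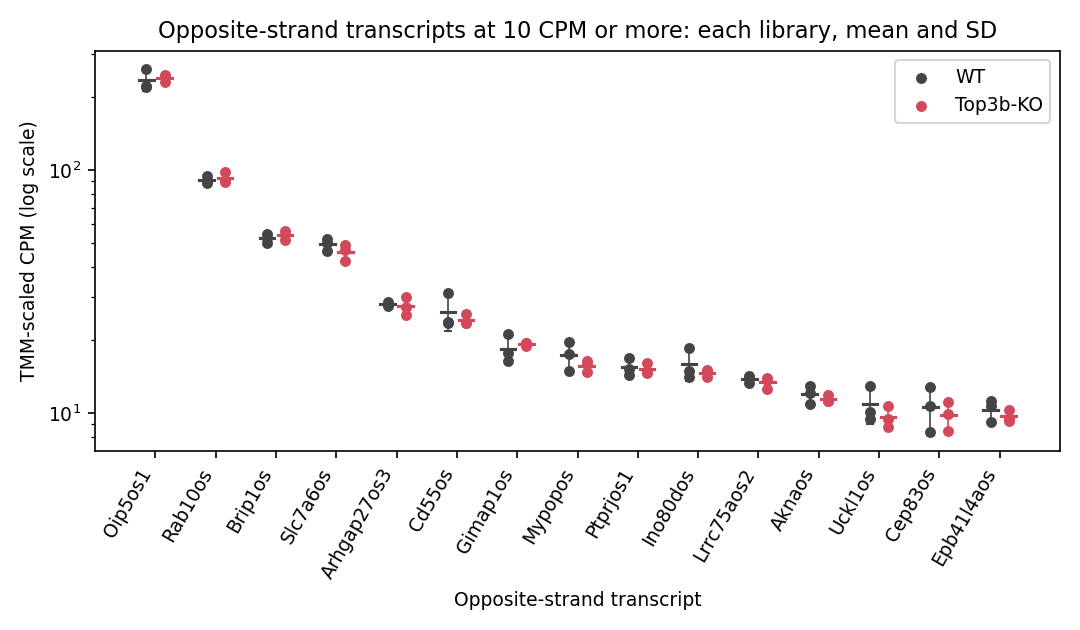
Level of the 15 opposite-strand transcripts at 10 CPM or more in each of the 3 WT (grey) and 3 Top3b-KO (red) libraries, in TMM-scaled CPM on a log axis, with the group mean (bar) and SD (whisker). The genotypes overlap for each of the 15.

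Among the partners, 8 were immune or inflammatory genes, and their 8 opposite-strand transcripts ranged from 0.791 to 25.2 CPM. Cd55os, convergent with the gene of the complement regulator CD55, was at 23.8, 23.5 and 31.2 CPM in WT and 23.5, 25.5 and 23.5 CPM in the knockout. Cd55 was at 244 ± 29.1 CPM in WT, against 239 ± 14.03 CPM in the knockout (SD, n = 3). Gimap1os overlaps the 5′ end of Gimap1, a GTPase gene needed for lymphocyte survival, over 1107 exon bases. It was at 16.3, 17.7 and 21.1 CPM in WT and 19.0, 19.4 and 19.5 CPM in the knockout, and Gimap1 at 104 ± 1.93 and 104 ± 4.10 CPM (SD, n = 3). Ptprjos1, opposite the receptor phosphatase gene Ptprj, was at 15.5 ± 1.30 and 15.1 ± 0.824 CPM (SD, n = 3). Faddos, which overlaps the 3′ end of the death-receptor adaptor gene Fadd, was at 0.939 ± 0.332 CPM in WT, against 1.10 ± 0.582 CPM in the knockout (SD, n = 3). Il1bos was at 2.03 ± 0.163 CPM in WT, against 1.73 ± 0.265 CPM in the knockout (SD, n = 3). All 8 were tested, and 4 had a log2 fold change above 0 and 4 below. In the edgeR fit described below, 0 of the 8 reached an unadjusted p under 0.05, against 5.52% of all genes.

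A further 15 were paired with transcription factor genes and ranged from 0.449 to 16.5 CPM. Mypopos, inside the gene of the repressor Mypop, was at 19.6, 14.9 and 17.5 CPM in WT and 16.4, 14.8 and 15.9 CPM in the knockout. Mypop was at 4.97, 4.26 and 4.33 CPM in WT and 3.36, 3.76 and 3.44 CPM in the knockout, so its groups did not overlap while those of Mypopos did. Aknaos, inside the AT-hook gene Akna, was at 11.97 ± 1.03 and 11.4 ± 0.347 CPM (SD, n = 3). Junos, separated in RefSeq by a gap of 94 bases from the start of Jun, a subunit gene of the AP-1 factor, was at 7.60 ± 1.24 CPM in WT, against 7.55 ± 0.580 CPM in the knockout (SD, n = 3). The GENCODE M21 models of Junos and Jun share 232 exon bases, so their counts may not be fully separate. Bach2os lies inside Bach2, a repressor gene of B and T cells, and was at 4.32 ± 1.03 and 3.73 ± 0.258 CPM (SD, n = 3). Zeb2os, inside the repressor gene Zeb2, was at 2.56 ± 0.669 and 3.01 ± 0.930 CPM (SD, n = 3). Zbtb11os1, Zfp335os, Foxd2os, Lef1os1, Sp3os, Zfp85os and Hopxos were also above 1 CPM. Of the 14 tested, 7 had a log2 fold change above 0 and 7 below, between -0.26 and 0.20.

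Genes of chromatin and histones had 8 opposite-strand transcripts, at 0.932 to 15.3 CPM. Ino80dos overlaps the 5′ end of Ino80d, a subunit gene of the INO80 remodeller, and was at 14.1, 14.9 and 18.5 CPM in WT and 14.9, 15.1 and 14.1 CPM in the knockout. H3f3aos, at the 5′ end of the histone H3.3 gene H3f3a, was at 8.70 ± 1.81 and 9.11 ± 0.867 CPM (SD, n = 3), and per kilobase at 2.30% of H3f3a. Phf2os1, Kdm6bos, Dnmt3aos and Brd3os, opposite genes for histone demethylases, a DNA methyltransferase and a bromodomain protein, lay below 3 CPM in both genotypes. Rsf1, the gene of a nucleosome spacing factor, had 2 opposite-strand transcripts. Rsf1os2 was at 1.87, 2.36 and 2.07 CPM in WT and 1.72, 1.31 and 1.52 CPM in the knockout, without overlap, and its log2 fold change was -0.47 (95% interval -0.99 to 0.04). Rsf1os1, below 1 CPM on average, had a log2 fold change of 0.28 (95% interval -0.40 to 0.96), so neither differed from 0 beyond its interval.

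Small GTPases and their regulators had 13 opposite-strand transcripts at 9 partners. Arhgap27os3, inside the GTPase-activating gene Arhgap27, was at 28.2, 27.7 and 28.6 CPM in WT and 25.3, 27.4 and 29.9 CPM in the knockout. Arhgap27os2, on the same partner, stood at 0.619 CPM on average over the 6 libraries. The 3 transcripts at Rapgef4, an exchange factor gene for Rap GTPases, were Rapgef4os1 at 2.83 ± 0.490 CPM in WT, Rapgef4os2 at 2.45 ± 0.542 and Rapgef4os3 at 5.24 ± 0.694 (SD, n = 3). In Top3b-KO they were at 3.31 ± 0.834, 2.35 ± 0.633 and 5.53 ± 0.493 CPM (SD, n = 3). Rab26os, Arhgap15os and Tbc1d22bos were also above 1 CPM, as was Rab11fip4os2, whose log2 fold change of 0.39 was the highest of this group (95% interval -0.29 to 1.07). Of the 12 tested, 7 lay above 0 and 5 below.

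Metabolic enzymes, transporters and channels had 15 opposite-strand transcripts, with a median of 36.7% of the partner per kilobase. Apart from Slc7a6os, Uckl1os was highest in reads at 10.1, 13.0 and 9.49 CPM in WT and 10.7, 9.47 and 8.80 CPM in the knockout. Far1os, inside the fatty acyl-CoA reductase gene Far1, was at 8.52 ± 0.633 and 9.14 ± 1.24 CPM (SD, n = 3). Pigbos1 encodes a mitochondrial microprotein and is separated in RefSeq by a gap of 18 bases from the start of Pigb, a mannosyltransferase gene of the GPI anchor pathway. In the GENCODE M21 models the 2 genes share 661 exon bases, so their counts may not be fully separate. Pigbos1 was at 7.43, 7.34 and 7.22 CPM in WT and 6.14, 7.13 and 6.98 CPM in the knockout. Pigb was at 24.2 ± 2.56 CPM in WT, against 27.9 ± 2.30 CPM in the knockout (SD, n = 3). Galnt6os, Man2c1os, Kcnmb4os2, Slc36a3os, Cdiptos, Dhrs13os, Mccc1os and Acss2os were the others above 1 CPM. Of the 14 tested, 5 lay above 0 and 9 below, between -0.38 and 0.12.

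Of 5 opposite genome maintenance and segregation genes, Oip5os1 and Brip1os are described above, and Alkbh3os1 was at 2.31 ± 0.208 CPM in WT, against 2.58 ± 0.569 CPM in the knockout (SD, n = 3). Genes of kinases and kinase complexes had 8, the highest at 3.02 CPM on average over the 6 libraries. Of these, Tnk2os, Prkag2os1, Prkag2os2, Cdk19os, Rptoros and Stk35os1 were above 1 CPM. The remaining 43 were paired with genes of mixed function. Lrrc75aos2 was at 13.8 ± 0.494 and 13.4 ± 0.752 CPM, Cep83os at 10.6 ± 2.21 and 9.84 ± 1.33 CPM, and Epb41l4aos at 10.3 ± 1.04 and 9.70 ± 0.556 CPM in WT, against Top3b-KO (SD, n = 3). Rbm3os, at the 5′ end of the cold-inducible RNA-binding gene Rbm3, was at 7.45 ± 0.323 and 8.47 ± 0.921 CPM (SD, n = 3). Wdr83os, which encodes a chaperone subunit of the endoplasmic reticulum, was at 7.91 ± 0.777 and 7.21 ± 0.854 CPM (SD, n = 3), and per kilobase at 99.8% of Wdr83.

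Others of this mixed group above 1 CPM were Fam120aos, Slain1os, Sap30bpos, Frmd8os, Lppos, Ube4bos1, Anxa11os, Zmiz1os1, Phtf1os, Bcas3os1, N4bp2os, Atxn7l1os1, Atxn7l1os2, Fbxl12os, Ccdc142os, Abhd11os, Appbp2os, Cebpzos, Nckap5los, Dtnbos, Mkln1os, Bloc1s6os, Tmem147os, Pard3bos1 and Atad3aos. With those named elsewhere in the text they complete the 90 transcripts at 1 CPM or more. Cebpzos, at 2.48 ± 0.474 CPM in WT, against 1.82 ± 0.230 CPM in the knockout (SD, n = 3), and Sap30bpos, at 5.50 ± 1.43 and 6.79 ± 0.219 CPM (SD, n = 3), had log2 fold changes of -0.46 and 0.31. The 95% intervals, -0.96 to 0.04 and -0.05 to 0.67, included 0. The 25 transcripts below 1 CPM ranged from 0.449 to 0.998 CPM.

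The comparison of genotypes asked whether opposite-strand transcripts differ in Top3b-KO splenocytes. Of the 115, 110 passed edgeR's filter and were tested in the fit over all 18716 genes. At an adjusted p under 0.05, 0 of the 110 differed in edgeR (quasi-likelihood test, Benjamini-Hochberg adjusted over all genes), and 0 in limma-voom. DESeq2 took in all 115, and 0 passed. Some rare transcripts, among them Atcayos and Lrp8os2, had no adjusted p in DESeq2 and could not pass there. Over all genes 0.0107% passed in edgeR, that is 2 genes. The lowest adjusted p of the 110 in edgeR was 0.87. At an unadjusted p under 0.05 there were 0 of 115 in DESeq2, against 1.92% of all genes in that fit. In edgeR there were 2 of 110 (1.82%), against 5.52% of all genes. Both were lower in Top3b-KO, as were 3.69% of all genes, and 0 were higher, against 1.83%. The genotypes did not overlap in CPM for 8 of 110 (7.27%), against 11.0% of all genes. Of the 8, 2 were higher in Top3b-KO (5.39% of all genes) and 6 lower (5.63%). None of these shares exceeded the background.

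The log2 fold changes were spread evenly about 0, with 55 above and 55 below and a median of -0.0021. Over all tested genes 49.1% were above 0. The values ran from -0.51 for Atcayos to 0.71 for Lrp8os2. The 95% interval lay within a 1.5-fold change in either direction for 49 transcripts and within a 2-fold change for 97. The median standard error was 0.228, against 0.135 over all genes and 0.0867 for the sense partners. In the 36 tested pairs without shared exon bases the median was -0.033, 17 were above 0, and 0 had an unadjusted p under 0.05 in edgeR. Of the 13 pairs whose closest RefSeq starts lay back to back, 12 were tested. There 6 were above 0, the median was -0.019 and likewise 0 had an unadjusted p under 0.05 in edgeR. Over all genes that share was 5.52%.

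**Figure D3:**
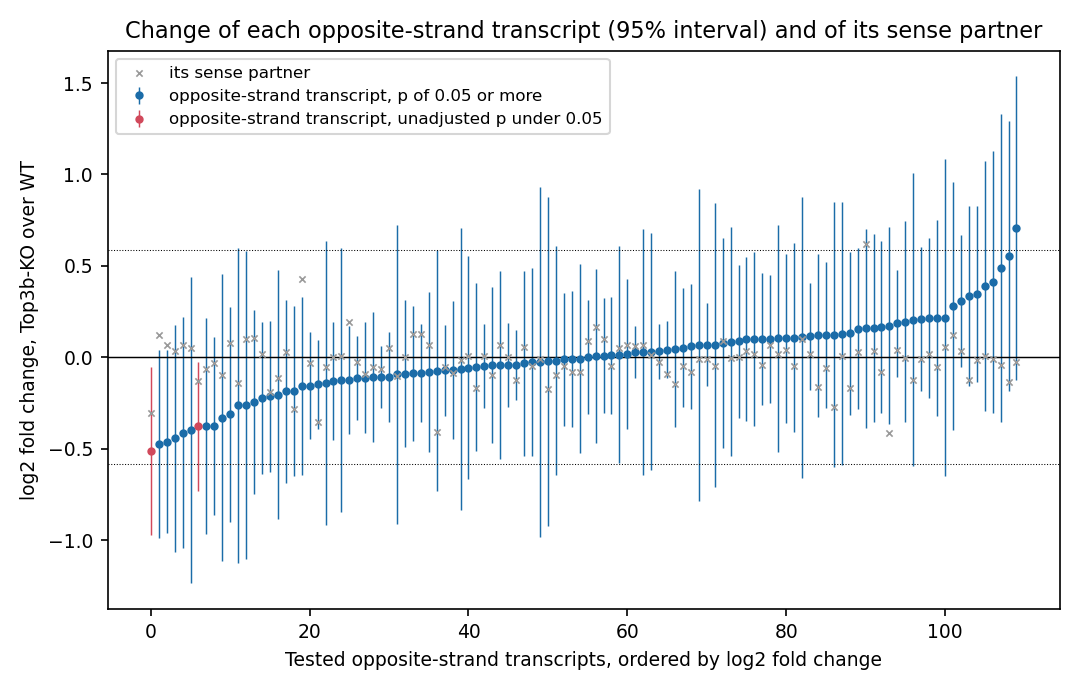
The log2 fold change of Top3b-KO over WT for the 110 tested opposite-strand transcripts (dots, with 95% intervals), in order of size, and for the sense partner of each (crosses). Dotted lines mark a 1.5-fold change, and the 2 red dots, both below 0, are Atcayos and Mmp24os1.

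Atcayos overlaps the 3′ end of Atcay, the gene of a brain-enriched protein known as caytaxin, over 432 exon bases. It was at 2.65, 3.02 and 3.39 CPM in WT and 2.17, 2.34 and 1.62 CPM in the knockout. All 3 knockout values lay below all WT values, for a log2 difference of -0.51 (SE 0.219). The unadjusted p in edgeR was 0.030 and became 0.87 on Benjamini-Hochberg adjustment. Atcay itself was at 1.94, 2.03 and 1.57 CPM in WT and 1.47, 1.54 and 1.42 CPM in the knockout. It too was lower without overlap, at a log2 fold change of -0.31 (SE 0.248). Where the 2 genes share exons, their reads may not be fully separate.

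Mmp24os1, opposite the membrane-type metalloproteinase gene Mmp24, was at 5.23, 4.85 and 5.09 CPM in WT and 4.14, 3.92 and 3.44 CPM in the knockout. The groups did not overlap, and the log2 fold change was -0.38 (SE 0.167), at an unadjusted p of 0.036 in edgeR, or 0.88 when adjusted. Mmp24 was at 4.39, 3.74 and 2.89 CPM in WT and 2.70, 3.64 and 3.95 CPM in the knockout, which overlapped. Leaving out WT replicate 3 or Top3b-KO replicate 3 left 0 opposite-strand transcripts at an unadjusted p under 0.05 in edgeR, where 13.2% and 4.35% of all genes tested lay under it. Leaving out WT replicate 1 gave 5 (4.42%, against 5.3% of all genes), and leaving out Top3b-KO replicate 1 gave 5 (4.46%, against 5.59%). Leaving out Top3b-KO replicate 2 gave 1 (0.893%, against 3.6%).

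The transcript with the highest log2 fold change, Lrp8os2, was rare. It lies inside Lrp8, a receptor gene for apolipoprotein E, and was at 0.517, 0.393 and 0.691 CPM in WT and 0.819, 0.713 and 1.32 CPM in the knockout. The log2 fold change was 0.71 with a 95% interval of -0.12 to 1.54, while Lrp8 stood at 13.9 ± 2.78 CPM in WT, against 13.6 ± 1.57 CPM in the knockout (SD, n = 3). Fcnaos was the other one above WT without overlap, at 1.29, 1.57 and 1.38 CPM in WT and 1.60, 1.58 and 1.62 CPM in the knockout. The lower ones without overlap were Atcayos, Mmp24os1, Rsf1os2, Pigbos1, Mccc1os and Tmem147os. Mccc1os, at the 5′ end of a leucine catabolism gene, was at 1.36, 1.25 and 1.51 CPM in WT and 1.19, 1.07 and 1.01 CPM in the knockout. Tmem147os was at 1.10, 1.31 and 1.57 CPM in WT and 0.901, 1.03 and 1.01 CPM in the knockout. All 8 differences were small in reads, and 0 passed adjustment in edgeR.

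Of the 105 sense partners, 0 passed the adjusted threshold in edgeR and 5 had an unadjusted p under 0.05 (4.76%, against 5.52% of all genes). That number of partners was 13 without WT replicate 3 (12.4%, against 13.2% of all genes), 9 without Top3b-KO replicate 1 (8.57%, against 5.59%) and 8 without WT replicate 1 (7.62%, against 5.3%). Ptgs2, the gene of the prostaglandin-forming enzyme COX-2, was at 11.5, 13.3 and 12.1 CPM in WT and 14.01, 22.3 and 20.6 CPM in the knockout. All 3 knockout values lay above WT. The log2 fold change was 0.62 (SE 0.151), and edgeR's adjusted p was 0.53. Without Top3b-KO replicate 1, the lowest of the 3, the adjusted p in edgeR was 0.0072 at a log2 fold change of 0.82. Over the 14 other settings tried it ran from 4.07e-04 to 1.00. Its opposite-strand transcript Ptgs2os2, convergent and without overlap, was at 1.23, 1.57 and 1.51 CPM in WT and 1.43, 1.70 and 1.72 CPM in the knockout, which overlapped.

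Fcna, the gene of the lectin-pathway protein ficolin A, was at 24.2, 21.4 and 16.6 CPM in WT and 17.2, 14.5 and 14.9 CPM in the knockout. Its log2 fold change was -0.41 (SE 0.128), and edgeR's adjusted p was 0.67. Lef1, a transcription factor gene of developing lymphocytes, was at 182, 187 and 167 CPM in WT and 202, 196 and 203 CPM in the knockout, with a log2 fold change of 0.16. Arl4a, a small GTPase gene, was at 32.6 ± 2.91 CPM in WT, against 38.3 ± 2.13 CPM in the knockout (SD, n = 3), with a log2 fold change of 0.24. Pitpnm2, a phosphatidylinositol transfer protein gene, was at 101 ± 5.63 CPM in WT, against 90.4 ± 9.48 CPM in the knockout (SD, n = 3), with a log2 fold change of -0.17, which was -0.088 without Top3b-KO replicate 2. The adjusted p of Lef1, Arl4a and Pitpnm2 in edgeR lay between 0.83 and 0.89. Over the 105 sense partners the genotypes did not overlap in CPM for 9 (8.57%), against 11.0% of all genes. Of the 9, 4 were higher in Top3b-KO (5.39% of all genes) and 5 lower (5.63%), Atcay and Mypop among the latter. Lef1 and Arl4a, like Ptgs2, were higher without overlap, whereas the groups of Fcna and Pitpnm2 overlapped. Of the 6 opposite-strand transcripts at these 5 partners, Arl4aos was too rare to be tested and the other 5 had an unadjusted p over 0.05 in edgeR.

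Between partner and opposite-strand transcript, 59 of 110 pairs lay on the same side of 0. The median log2 fold change of the partners was -0.0070, with 49 above 0 and 56 below. In 73 pairs the opposite-strand transcript had the larger absolute log2 fold change, and it was also the one with the larger standard error on average. The log2 ratio of the 2 levels, with 0.5 CPM added to each, was compared between genotypes within every pair. Its difference, Top3b-KO minus WT, had a median of 0.0048 over the 115 pairs, with 60 above 0 and 55 below. It ran from -0.57 for Slc36a3os to 0.55 for Map2k3os. Only the 8 pairs in which 1 of the genes had an unadjusted p under 0.05 were tested one by one, by two-sided exact permutation, which with 3 libraries against 3 cannot give a p under 0.1. The 8 were picked by the same genotype contrast, so these tests are not independent of that choice.

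In the Ptgs2 pair the log2 ratio was -2.80, -2.74 and -2.65 in WT and -2.91, -3.37 and -3.25 in the knockout. It was lower in all 3 knockout libraries, by -0.45 on average, with an exact permutation p of 0.1. In the Fcna pair it was -3.78, -3.40 and -3.18 in WT and -3.07, -2.84 and -2.86 in the knockout, a difference of 0.53 and again an exact permutation p of 0.1. Ptgs2os2 and Fcnaos had log2 fold changes of 0.16 and 0.17, against 0.62 and -0.41 for their partners. That of Fcnaos was 0.11 without WT replicate 1. The ratios of the other 6 pairs overlapped between genotypes, with differences of -0.28 for Mmp24os1, -0.27 for Arl4aos, -0.23 for Atcayos, -0.12 for Lef1os1, 0.15 for Pitpnm2os1 and 0.32 for Pitpnm2os2. Their exact permutation p-values lay between 0.2 and 0.7.

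**Figure D4:**
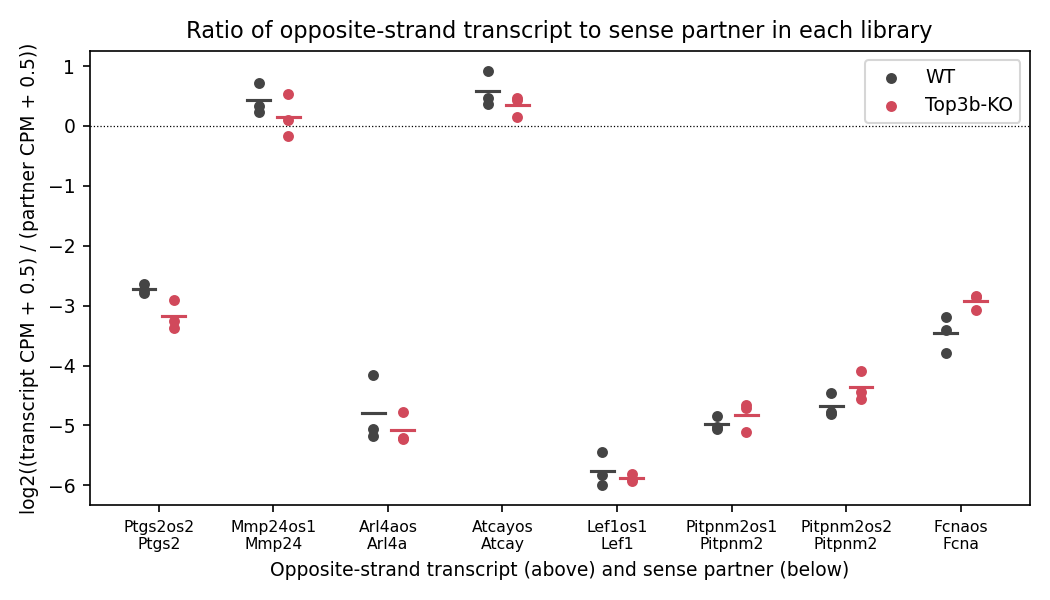
The log2 ratio of opposite-strand transcript to sense partner, with 0.5 CPM added to both, in each WT (grey) and Top3b-KO (red) library for the 8 pairs in which either gene had an unadjusted p under 0.05, with group means as bars. The genotypes are apart in the pairs Ptgs2os2 with Ptgs2 and Fcnaos with Fcna, and overlap in the other 6. The 8 were picked by the same genotype contrast, so a separation here is not independent of that choice. The share of all 115 pairs that are apart is not given here.

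Machinery known to degrade or terminate antisense and other unstable nuclear transcripts was described from 3 lists. Whether it acts on the transcripts described here was not tested. Of 13 tested genes of the nuclear exosome, 9 had a log2 fold change above 0 and 4 below, with a median of 0.030. Of 5 adaptor genes of the NEXT and PAXT complexes, 3 were above 0 and 2 below, with a median of 0.035. Of 12 genes of the cap-binding, Restrictor, Integrator and termination factors, 8 were above 0 and 4 below, with a median of 0.018. Over the 30 genes 0 passed adjustment in edgeR and 1 (3.33%) had an unadjusted p under 0.05, against 5.52% of all genes. That 1 gene was Pcf11, a termination factor gene, at 236, 233 and 238 CPM in WT and 254, 265 and 254 CPM in the knockout. Its log2 fold change was 0.13 (SE 0.061), and edgeR's adjusted p was 0.90. All 30 intervals lay within a 1.5-fold change.

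A second class of antisense names, symbols that end in "as" with a partner in the table, had 7 tested transcripts. Of these 3 were above 0 and 4 below, with a median log2 fold change of -0.087, 0 past adjustment and 0 at an unadjusted p under 0.05 in edgeR. Among cell-type markers the median was -0.032 for 5 B cell genes, all below 0, and 0.074 for 5 T cell genes, all above 0. It was -0.14 for 3 natural killer genes and -0.36 for 4 erythroid genes, all below 0. For 4 myeloid genes, 3 of them above 0, it was 0.0081, and for 2 stromal genes, 1 on each side of 0, it was -0.15. In edgeR 0 passed adjustment. An unadjusted p under 0.05 in edgeR was seen for 1 of the 5 T cell genes (Cd3e) and 1 of the 3 natural killer genes (Klrb1c). Over all genes the share was 5.52%. Of the pancreas list only Cela1 was tested, at -0.17, and no platelet, neural or germline marker was abundant enough to be. In bulk RNA, fewer cells of a type and less RNA per cell cannot be told apart, and the part of cell composition in the values above was not tested.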

How the data were processed

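Total RNA depleted of ribosomal RNA was sequenced from 6 splenocyte libraries. The authors deposited expected counts per gene symbol, from reads mapped to mm39 by STAR (submitters' processing notes). How reads were counted, with which annotation and strand setting, was not stated in these sources. Values of 72 symbols, 1 of them (Tmem147os) an opposite-strand transcript, were not whole within 1e-06, and all were rounded to whole numbers. Genes were kept by edgeR's filterByExpr and tested with edgeR's quasi-likelihood test (TMM, robust, genotype only, two-sided), Benjamini-Hochberg adjusted over all 18716 genes at a threshold of 0.05. The software was edgeR 4.0.16, DESeq2 1.42.0 and limma 3.58.1 under R 4.3.3. CPM are TMM-scaled. Ratios used a pseudocount of 0.5 CPM.

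Gene models and exon lengths came from GENCODE M21, which matched 110 of 115 opposite-strand transcripts by current or older name, and classes, start sites and the microRNA from RefSeq (GRCm38.p6). That build differs from the mm39 of the counts, so it served for arrangement, length and sequence only. The RNA surveillance, antisense-name and cell-type marker lists, the grouping of partners by role and the opposite-strand set itself were chosen with earlier results of these data known. Named were Top3b, each opposite-strand transcript with a mean of at least 1 CPM, transcripts or partners at an unadjusted p under 0.05, the lowest and highest log2 fold change, those above their partner per kilobase, and surveillance genes at an unadjusted p under 0.05. Other transcripts in the text were chosen after their values were seen, and 2 genes are not reported here. Alternatives changed the filter, scaling, test, dispersion, replicate block, pseudocount and libraries included.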

Additional observations from a re-analysis of the deposited data

How the results depend on the processing

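The count of opposite-strand transcripts past the adjusted threshold was 0 in edgeR and in all 14 alternatives. These changed the filter, scaling, test, dispersion setting, replicate block and libraries included. DESeq2 gave some rare transcripts no adjusted p, so these could not pass there. At an unadjusted p under 0.05 the count of opposite-strand transcripts ran from 0 to 5. The share of all genes under it ran from 1.92% in DESeq2 to 13.2% without WT replicate 3, and both of those fits gave 0 transcripts. The count of 5 came without WT replicate 1 (4.42%, against 5.3% of all genes) and without Top3b-KO replicate 1 (4.46%, against 5.59%). The number of all genes past the adjusted threshold was 2 in the main edgeR fit, 7 in DESeq2, 1 in limma-voom, 44 with no filter on low counts and 1 with robust=FALSE. With 1 library left out it ran from 1 to 32, reaching 32 without WT replicate 3, and it was 9 when Top3b-KO replicate 1 was left out. Of the sense partners, 0 passed in the main fit and 1, Ptgs2, with no filter (adjusted p = 4.07e-04 in edgeR) and without Top3b-KO replicate 1; leaving out 1 library gave 0 to 1. For these counts the cause was not tested.

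The median log2 fold change, -0.0021 for the opposite-strand transcripts and -0.0070 for the partners, ran from -0.030 to 0.029 and from -0.041 to 0.0077 with 1 library left out. That of the 92 with at least 10 counts in all 6 libraries was -0.0080. The small difference of Oip5os1 changed sign, from -0.010 to 0.11, as did that of Rab10os, from -0.0071 to 0.058, when libraries were left out. Top3b stayed between -0.90 and -0.84 in all 14.

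With the replicate number as a block, 41 genes passed in edgeR, including 1 sense partner (Ptgs2, adjusted p = 0.0068) and 0 opposite-strand transcripts. Libraries with the same number had deviations from their genotype mean that correlated at 0.16, -0.0067 and 0.0093. Those with different numbers correlated at -0.080 to 0.078. With 3 libraries per genotype these values cannot settle whether the numbers pair the samples.

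At the precision of these 6 libraries, 61 of the 110 tested opposite-strand transcripts had a 95% interval that reached beyond a 1.5-fold change, and 13 one beyond a 2-fold change.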
